A study of Mus musculus with 8 samples.

Results

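The 35 genes described here cover the making, sensing, export and storage of cholesterol in mouse liver. They were chosen by symbol, and all 35 were found among the 31910 genes of the deposited count table. By role they comprise 18 enzymes of cholesterol synthesis, 5 genes of the SREBP2 system that senses sterols, and 12 genes of sterol efflux, esterification and uptake. Livers of mice that had received the adeno-associated viral vector AAV2/9-SA were compared with livers of mice that had received AAV2/9-Ctrl, with 4 bulk RNA-seq libraries in each group, called SA and Ctrl below. The title of the series names a protein of bacterial origin that binds acetyl-CoA carboxylase, the enzyme that commits acetyl-CoA to fatty acid synthesis, in mice with steatohepatitis. Both vectors were given through the tail vein at 4.8e10 vector genomes per mouse once 7 weeks of feeding had passed. The feeding schemes of the series were 24 weeks of high-fat diet, 16 weeks of a diet rich in fat and cholesterol with fructose and sucrose to drink, and chow. The labels of the 8 libraries do not say which diet each mouse ate, its age, strain or sex, which promoter drives the vector, or that the 8 libraries stand for 8 animals.

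Cholesterol is built from acetyl-CoA in the mevalonate pathway, which ends in farnesyl diphosphate, and in a sterol branch that joins farnesyl units into squalene and closes and trims the rings. When the endoplasmic reticulum is poor in sterols, the membrane protein SCAP carries the transcription factor SREBP2 to the Golgi, where it is cut and released to the nucleus to switch on nearly every gene of the pathway. Sterols hold SCAP back through the INSIG proteins, while oxidised sterols activate the liver X receptors (LXR), which switch on transporters that move cholesterol into high-density lipoprotein (HDL) and bile. Synthesis and efflux genes are therefore known to move in opposite directions when liver cholesterol changes.

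SREBP2 is known to bind a sterol response element with help from NF-Y, which binds CCAAT boxes, and SP1, which binds GC boxes, so the start regions of 3 genes of this system are shown beside that of an LXR target. The sequences are from RefSeq on the mouse build GRCm38.p6, run 5′ to 3′ on the gene's strand and end at the base before the annotated start, or before the first annotated exon where one lies upstream. In Srebf2 and Insig1 such an exon lies upstream, so their printed letters stop short of the annotated start. Distances given below count back from the annotated start and not from the printed end. Capitals mark the sterol response element core TCACNCCA, CCAAT boxes and GC boxes with the letters GGGCGG, each on either strand. The windows lie at chr13:119690101-119690350 (plus strand, 250 bases) for Hmgcs1, chr15:82147019-82147180 (plus strand, 162 bases) for Srebf2, chr5:28071162-28071362 (plus strand, 201 bases) for Insig1 and chr4:53159896-53160145 (minus strand, 250 bases) for Abca1.
Hmgcs1: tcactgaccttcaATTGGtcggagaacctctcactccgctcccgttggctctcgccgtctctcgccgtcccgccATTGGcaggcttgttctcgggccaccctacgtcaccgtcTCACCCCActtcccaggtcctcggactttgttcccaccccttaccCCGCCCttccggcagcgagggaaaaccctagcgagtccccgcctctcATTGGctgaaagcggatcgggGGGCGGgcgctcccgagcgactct
Srebf2: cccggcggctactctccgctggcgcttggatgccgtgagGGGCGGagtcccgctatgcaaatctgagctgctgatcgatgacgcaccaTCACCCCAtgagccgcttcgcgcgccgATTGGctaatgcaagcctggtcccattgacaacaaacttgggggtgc
Insig1: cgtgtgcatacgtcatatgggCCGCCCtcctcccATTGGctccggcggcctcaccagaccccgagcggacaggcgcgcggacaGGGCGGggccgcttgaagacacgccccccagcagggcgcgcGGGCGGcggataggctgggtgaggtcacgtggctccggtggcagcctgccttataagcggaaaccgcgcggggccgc
Abca1: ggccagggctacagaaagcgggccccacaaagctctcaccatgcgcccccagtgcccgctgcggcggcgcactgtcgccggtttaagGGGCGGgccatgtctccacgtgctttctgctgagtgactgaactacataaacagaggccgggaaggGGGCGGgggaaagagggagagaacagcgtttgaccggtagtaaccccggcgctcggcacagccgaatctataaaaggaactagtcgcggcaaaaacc

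The Hmgcs1 window holds a sterol response element core 137 bases before the start and CCAAT boxes 237, 176 and 45 bases before it. In Srebf2, whose protein is known to switch on its own gene, the core lies 162 bases before the start and a CCAAT box 135 bases before it. The Insig1 window holds a CCAAT box and 3 GC boxes but no match to these core letters. Of the motifs marked here, the Abca1 window holds only GC boxes, 2 of them. LXR sites are not marked. One exact form of a paired LXR site was searched for and found in 7 of all 32851 windows and in 0 members. Other forms were not searched for, so this does not show that the Abca1 window lacks an LXR site. A window of 250 bases before the start was in the RefSeq table for 27 of the 35 members. Of these, 14 of 15 synthesis genes held a CCAAT box, as did 3 of 4 SREBP2 system genes and 4 of 8 efflux genes, against 33.8% of all 32851 windows. GC boxes were found in 14 of 15 synthesis genes, 4 of 4 SREBP2 system genes and 3 of 8 efflux genes, against 32.7% of all windows. A member was counted if any of its windows held the motif, while the background is a share of windows, so these shares are not strictly alike. The core TCACNCCA was in the windows of Hmgcs1, Msmo1 and Srebf2 and in 3.67% of all windows. The letters were chosen after the promoters had been read, and a match is a description of the sequence, not a bound site.

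Total counts were 14114145 to 15922829 in 7 libraries and 28184001 in SA 4. Mitochondrially encoded transcripts took 9.23% of the counts of Ctrl 4 and 3.55% to 4.87% of those of the others. Summed hepatocyte markers were 71638 to 103674 CPM (counts per 1e6 counts of a library, scaled by TMM factors) in Ctrl and 64802 to 87423 in SA, and none of these 8 defining genes was at 0. Most of the sum was Alb, at 42728 CPM in SA 1 to 76455 CPM in Ctrl 4. Of the 8 genes, 5 had positive and 3 negative estimates. Hnf4a had the smallest p, with a log2 fold change (SA minus Ctrl) of 0.61 ± 0.17 (SE). Its edgeR p was 0.00313 unadjusted and 0.425 adjusted, and its DESeq2 adjusted p was 0.0687. In bulk tissue, fewer cells of a type and less RNA per cell cannot be told apart.

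No member passed the test between SA and Ctrl. Of the 35 members, 33 had enough reads to be tested, and 0 of 33 had an adjusted p under 0.05 in edgeR's quasi-likelihood test, in which 0.0162% of all 12358 genes tested did (2 genes, 0.00809% higher and 0.00809% lower). DESeq2 also called 0 members, with 0.421% of 14724 genes called. At an unadjusted p under 0.05 there was 1 member of 33 (3.03%) against 6.21% of all genes. That member, Srebf2, was also the only one with no overlap between the groups, 1 of 33 (3.03%) against 3.12% of all genes (1.66% with SA higher). These shares are at or below the background, so the set as a whole held no more differing genes than the table it came from.

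The estimates lay close to 0. The members' log2 fold changes (SA minus Ctrl) ran from -0.42 for Insig2 to 0.41 for Idi1, 17 of them positive and 16 negative, where 48.7% of all genes tested were positive. Their median size without regard to sign was 0.16, against 0.14 over all genes. For 32 of the 33 members the 95% interval of the fold change stayed within 2-fold in either direction, the exception being Idi1, and for 16 it stayed within 1.5-fold. Standard errors ranged from 0.13 to 0.33 on the log2 scale, with a median of 0.19.

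**Figure D1:**
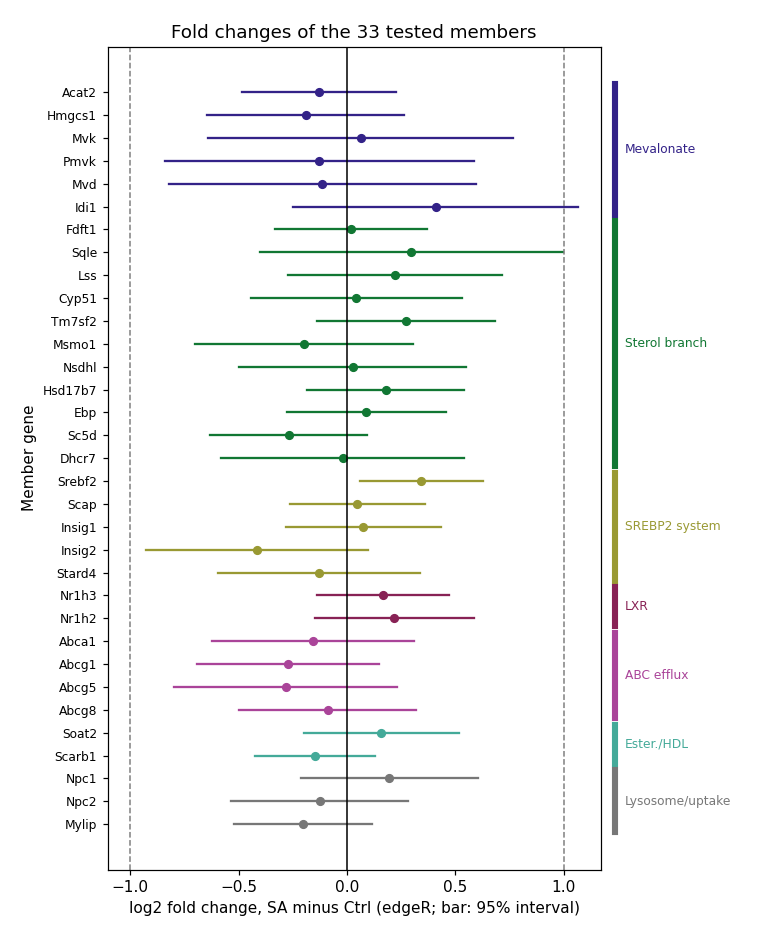
Log2 fold change (SA minus Ctrl, x axis) of the 33 tested members (y axis, coloured by role) from edgeR, with bars for the 95% interval and dashed lines at 2-fold. The bar of Srebf2 alone lies on one side of 0 (0.06 to 0.63), and only that of Idi1 crosses a dashed line (upper end 1.07).

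The SREBP2 system held both the member with the smallest p and the member with the most negative estimate. Srebf2, which encodes SREBP2 itself, had 53.9, 51.5, 57.6 and 45.3 CPM in Ctrl 1 to 4. Its SA values were 68.9, 68.0, 68.2 and 59.2 CPM in SA 1 to 4. Every SA library was above every Ctrl library, the closest being SA 4 at 59.2 and Ctrl 3 at 57.6, and the other 3 SA libraries lay within 1 CPM of each other. The mean of Ctrl was 52.1 ± 5.18 CPM (SD, n = 4) and that of SA 66.1 ± 4.59 CPM (SD, n = 4). The log2 fold change was 0.34 ± 0.13 (SE), with an unadjusted p of 0.0220 and an adjusted p of 0.696 in edgeR. DESeq2 gave an adjusted p of 0.533 for the same gene. The unadjusted p was no longer under 0.05 when SA 1, SA 2 or SA 3 was left out. In the deposited FPKM (fragments scaled by transcript length and library depth) Srebf2 was 13.7, 10.7, 16.7 and 9.53 in Ctrl and 16.0, 17.0, 17.5 and 14.5 in SA, and there the groups overlapped.

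Insig2, a membrane anchor that holds SCAP in the endoplasmic reticulum and whose liver transcript is known to be lowered by insulin, split the SA libraries. It had 375, 384, 254 and 388 CPM in Ctrl 1 to 4 and 415, 220.1, 215 and 200.4 CPM in SA 1 to 4. SA 2, SA 3 and SA 4 were below every Ctrl library, while SA 1 was the highest of all 8, and Ctrl 3 was well below the other Ctrl libraries. With SA 1 the means were 350.3 ± 64.5 and 263 ± 102 CPM (SD, n = 4 each), a log2 fold change of -0.42 ± 0.24 (SE, with an adjusted p of 0.939 in edgeR). Without SA 1 it was -0.72 with an edgeR adjusted p of 0.270, and without Ctrl 3 Insig2 also had an unadjusted p under 0.05. The same held with all 8 libraries and the replicate number as a block, where the log2 fold change was -0.46 (edgeR adjusted p = 0.864). In FPKM, Insig2 was 48.7, 105, 126 and 104 in Ctrl and 148, 74.2, 51.2 and 38.5 in SA, a difference of -0.40 on the log2(FPKM + 1) scale. SA 1 was the highest library there too, but Ctrl 1 and not Ctrl 3 was the lowest of Ctrl, below SA 2 and SA 3.

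Insig1, the anchor that SREBP2 itself switches on and a usual readout of its activity, showed no such split. Its values were 152, 153, 124 and 179 CPM in Ctrl 1 to 4 and 149.8, 201, 160.4 and 130.1 CPM in SA 1 to 4, fully interleaved. The log2 fold change was 0.08 ± 0.17 (SE), with a 95% interval from -0.28 to 0.43 (edgeR adjusted p = 0.996). Scap, the sterol-sensing escort of SREBP2, ranged from 94.7 to 132 CPM in Ctrl and from 105 to 124 CPM in SA, a log2 fold change of 0.05 ± 0.14 (SE). Stard4, a carrier of cholesterol between membranes and a known SREBP2 target, was 82.2, 77.3, 95.8 and 122 CPM in Ctrl and 72.8, 123, 88.5 and 61.0 CPM in SA. Its highest values, in SA 2 and Ctrl 4, were about the same, and its log2 fold change was -0.13 ± 0.22 (SE). Of the 5 genes, 3 had positive and 2 negative estimates, with a median of 0.05.

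**Figure D2:**
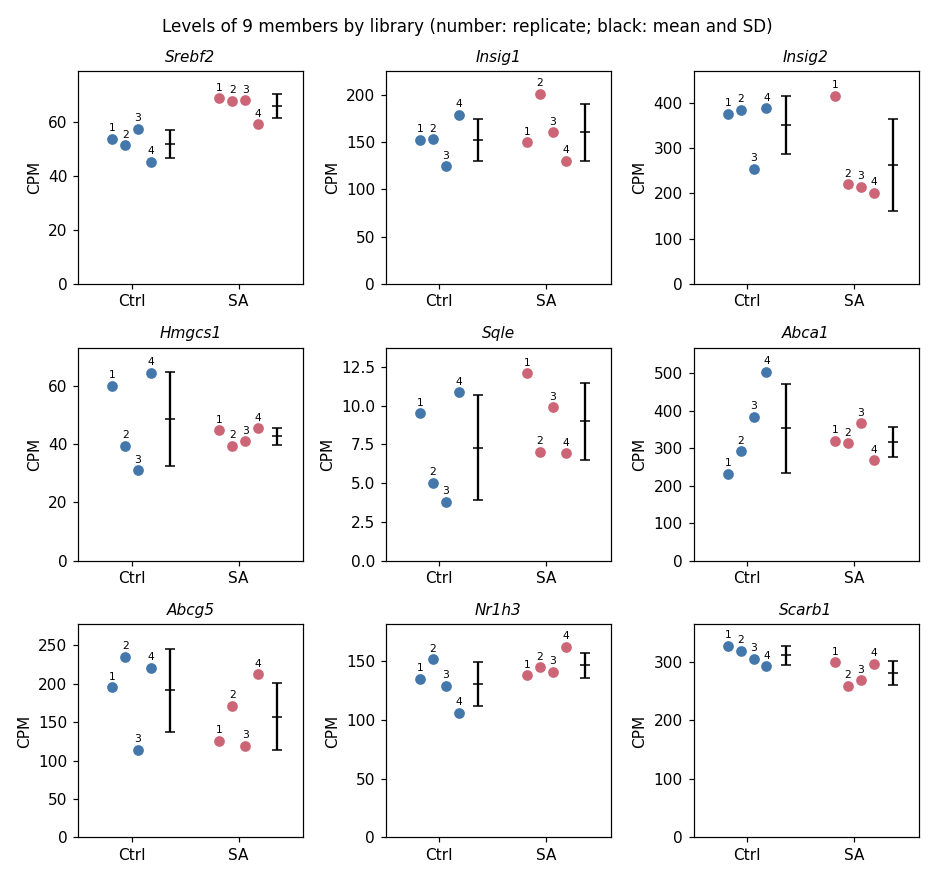
CPM (y axis, from 0) of 9 members in the 4 Ctrl and 4 SA libraries, with the replicate number above each point and the group mean and SD in black. The SA points of Srebf2 (59.2 to 68.9) lie above its Ctrl points (45.3 to 57.6), SA 1 stands alone at the top for Insig2 (415), and the groups of the other 7 genes overlap.

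The 7 mevalonate genes gave 2 positive and 4 negative estimates, with a median of -0.12, and 1 gene that could not be tested. Acat2, the cytosolic thiolase that joins acetyl-CoA units, ranged from 37.0 to 58.1 CPM in Ctrl and from 39.8 to 51.8 CPM in SA, a log2 fold change of -0.13 ± 0.16 (SE). Of its 50-base words, 45.9% also occur in its neighbour and close copy Acat3, so its count is uncertain. Hmgcs1, the synthase that makes HMG-CoA and whose start region is printed above, had 59.8, 39.3, 31.0 and 64.4 CPM in Ctrl 1 to 4 and 44.7, 39.4, 40.9 and 45.4 CPM in SA 1 to 4. The SA libraries all lay inside the Ctrl range, which was wider, with an SD of 16.1 against 2.90 CPM, and the log2 fold change was -0.19 ± 0.21 (SE). The kinases Mvk and Pmvk, which phosphorylate mevalonate in turn, spanned 5.24 to 14.0 and 5.81 to 17.5 CPM over the 8 libraries. Their log2 fold changes were 0.06 ± 0.32 and -0.13 ± 0.33 (SE), and in both genes Ctrl 1 and SA 1 were the 2 highest libraries. Mvd, the decarboxylase that makes the first isoprene unit, was the lowest tested member by counts, at 1.66 to 4.35 CPM and 437 reads in all, with a log2 fold change of -0.11 ± 0.33 (SE).

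Idi1, the isomerase that supplies the other isoprene unit, had the largest positive estimate of the set. Its levels were 8.73, 6.55, 8.33 and 16.4 CPM in Ctrl 1 to 4 and 20.1, 13.1, 10.8 and 9.22 CPM in SA 1 to 4. The 2 highest libraries were SA 1 and Ctrl 4, so the groups overlapped, and the log2 fold change was 0.41 ± 0.30 (SE) with a 95% interval from -0.25 to 1.07 (edgeR adjusted p = 0.987). Without Ctrl 4 the log2 fold change was 0.74 with an edgeR adjusted p of 0.391, and without SA 1 it was 0.15 (edgeR adjusted p = 0.998), below that of Srebf2 (0.32). With the mitochondrial share as a covariate it was 0.60 (edgeR adjusted p = 0.601). The unadjusted edgeR p of Idi1 was under 0.05 in that fit and without Ctrl 4. In the deposited FPKM the sign was not kept, since the difference on the log2(FPKM + 1) scale was -0.05. Of the 50-base words of Idi1, 30.5% occur in other genes, most of them in Gm13502. Fdps, the farnesyl diphosphate synthase, drew 65 reads in all 8 libraries together and a mean of 0.51 CPM in each group, too few to test. In the deposited FPKM table the same gene was listed at 43.1, 10.6, 35.3 and 4.62 FPKM in Ctrl and 30.0, 14.5, 7.47 and 18.7 FPKM in SA, which ranks 19 of the 31 members listed there. The 2 deposited tables thus disagreed on whether Fdps was near 0.

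The 11 genes of the sterol branch gave 8 positive and 3 negative estimates, with a median of 0.04. Fdft1, the squalene synthase, was even in counts, at 66.9, 63.9, 59.9 and 75.2 CPM in Ctrl 1 to 4 and 50.1, 81.4, 65.1 and 72.8 CPM in SA 1 to 4. Its log2 fold change of 0.02 ± 0.16 (SE) had a sign opposite to that in FPKM, where it was 4.25, 3.61, 4.13 and 2.40 in Ctrl and 2.46, 1.82, 2.39 and 0.854 in SA, a difference of -0.70 on the log2(FPKM + 1) scale (limma, unadjusted p = 0.0254, adjusted p = 0.999). In the GENCODE M21 annotation 18.3% of the exonic bases of Fdft1 overlap those of Ctsb, a lysosomal protease gene, and 30.7% of its 50-base words occur in other genes. Sqle, the squalene epoxidase and a rate-setting step of the branch, had 9.48, 5.03, 3.80 and 10.8 CPM in Ctrl 1 to 4 and 12.1, 7.01, 9.89 and 6.91 CPM in SA 1 to 4. Ctrl 2 and Ctrl 3 were the lowest and SA 1 the highest, the remaining values overlapped, and the log2 fold change was 0.30 ± 0.32 (SE, with an adjusted p of 0.996 in edgeR). Lss, the cyclase that closes the rings of lanosterol, was 5.03 to 7.72 CPM in Ctrl and 5.75 to 9.32 CPM in SA, a log2 fold change of 0.22 ± 0.23 (SE).

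The later enzymes of the branch, which remove methyl groups and shift double bonds, were no more uniform. Cyp51, the lanosterol demethylase, ranged from 39.1 to 53.2 CPM in Ctrl and from 25.6 to 58.0 CPM in SA, with SA 4 the lowest and SA 1 the highest of all 8 libraries. Dhcr7, the last reductase on the way to cholesterol, spread in the same way, with 62.8 CPM in SA 1, 24.8 CPM in SA 4 and 32.0 to 47.4 CPM in Ctrl. Msmo1, a methyl sterol oxidase with a sterol response element core in its start region, was 31.6 to 37.8 CPM in SA, inside the Ctrl range of 23.7 to 60.5 CPM. The sterol reductase Tm7sf2 (0.27 ± 0.19, SE) and the dehydrogenase Hsd17b7 (0.18 ± 0.17, SE) had positive log2 fold changes, and the desaturase Sc5d had the most negative one of the branch (-0.27 ± 0.17, SE). For Nsdhl and Ebp, a dehydrogenase and an isomerase, the log2 fold changes were 0.03 ± 0.24 and 0.09 ± 0.17 (SE). Those of Cyp51, Dhcr7 and Msmo1 were 0.04 ± 0.22, -0.02 ± 0.26 and -0.20 ± 0.23 (SE). The smallest adjusted p among all 17 tested synthesis genes was 0.954, for Sc5d, by edgeR.

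**Figure D3:**
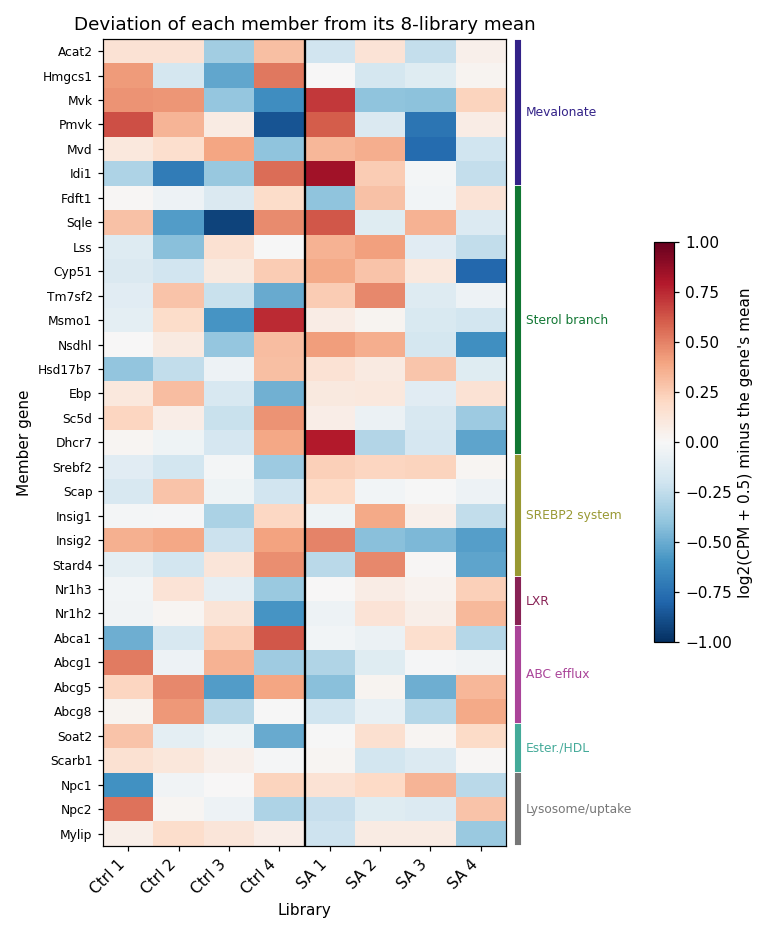
Deviation of log2(CPM + 0.5) from the 8-library mean of each gene (colour, red higher, blue lower) for the 33 tested members (rows by role) in each library (columns, Ctrl left and SA right of the line). Within the synthesis genes SA 1 is mostly red (highest in 6 of 17) and Ctrl 3, SA 3 and SA 4 mostly blue, while the 2 sides of the line do not differ as blocks.

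Libraries of the same group differed more in the synthesis genes than the group means did. The mean deviation of the 17 tested enzymes from their 8-library means, on the log2(CPM + 0.5) scale, was 0.07, -0.02, -0.22 and 0.09 in Ctrl 1 to 4. In SA 1 to 4 it was 0.30, 0.09, -0.15 and -0.17. SA 1 was the highest and Ctrl 3 the lowest, with SA 3 and SA 4 close above it, and the difference of the group means was 0.04 against a pooled SD of 0.19. SA 1 was the highest library in 6 of the 17 enzymes and Ctrl 4 in 5, while Ctrl 3, Ctrl 4 and SA 4 were each the lowest in 4. Ctrl 4 is the library with the raised mitochondrial share; the part of that share in these values was not tested beyond a fit with it as a covariate, in which 0 members were called and the synthesis median was 0.06.

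On the efflux side, both LXR genes had positive estimates and all 4 transporters negative ones, none past the test. The signs of Abca1 and Abcg8 depended on single libraries, since Abca1 was 0.057 without Ctrl 4 and Abcg8 0.065 without Ctrl 2. Ctrl 4 is the library with the raised mitochondrial share. Without it Nr1h3 was 0.073 and Nr1h2 0.080, smaller but still positive. Nr1h3, which encodes LXRα, the main LXR of liver, had 135, 151, 129 and 106 CPM in Ctrl 1 to 4 and 138, 144, 141 and 162 CPM in SA 1 to 4. The 2 ends of its range were Ctrl 4 and SA 4 with the rest between, and the log2 fold change was 0.17 ± 0.14 (SE, with an adjusted p of 0.996 in edgeR). Nr1h2, encoding the widely expressed LXRβ, was 43.0, 44.7, 48.4 and 29.2 CPM in Ctrl and 42.6, 48.7, 45.9 and 55.3 CPM in SA, with the same 2 libraries at the ends and a log2 fold change of 0.22 ± 0.17 (SE). In the deposited FPKM the differences were larger, 0.78 for Nr1h3 and 1.08 for Nr1h2 on the log2(FPKM + 1) scale, but with overlap in both genes. For Nr1h2 the limma p was 0.0471 unadjusted and 0.999 adjusted over the FPKM table, where 0 of 31 members and 0.0324% of all 9265 genes were called, and 2 of 31 members and 3.44% of all genes had an unadjusted p under 0.05.

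The transporters Abca1 and Abcg1, which load cholesterol onto apolipoproteins and HDL, are standard LXR targets. Abca1 had 232, 292, 384 and 503 CPM in Ctrl 1 to 4 and 319.5, 313, 366 and 268 CPM in SA 1 to 4. All SA libraries lay within the Ctrl range, whose top was Ctrl 4, and the log2 fold change was -0.16 ± 0.22 (SE, with an adjusted p of 0.996 in edgeR). Abcg1 was 26.7, 17.9, 23.7 and 14.4 CPM in Ctrl and 15.0, 17.0, 18.4 and 18.0 CPM in SA, again with a wider spread in Ctrl, and its log2 fold change was -0.27 ± 0.19 (SE). Abcg1 is also expressed by macrophages, and 8 markers of recruited macrophages summed to 147 to 347 CPM in Ctrl and 115 to 147 CPM in SA, with Ctrl 1 the highest for both. All 8 of these markers had negative estimates, and none was at 0. Of them, 5 had an unadjusted edgeR p under 0.05, where 3.29% of all genes were lower in SA at that threshold. The 6 Kupffer cell markers had positive estimates, with sums of 236 to 461 CPM in Ctrl and 394 to 573 CPM in SA. Of these 6, 1 had an unadjusted edgeR p under 0.05, where 2.91% of all genes were higher in SA. The part of these cells in the level of Abcg1 was not tested.

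Abcg5 and Abcg8 are neighbouring genes whose proteins form a single pump that secretes cholesterol into bile. Abcg5 had 195, 235, 114 and 221 CPM in Ctrl 1 to 4 and 126, 172, 119.6 and 212 CPM in SA 1 to 4. Abcg8 had 214, 284, 173 and 209 CPM in Ctrl 1 to 4 and 182, 199, 172 and 273 CPM in SA 1 to 4. The partners followed each other, with Ctrl 2 the highest and Ctrl 3 and SA 3 the 2 lowest in both, and the groups overlapped throughout. Their log2 fold changes were -0.28 ± 0.24 and -0.09 ± 0.19 (SE), both with an edgeR adjusted p of 0.996. The median of the 4 transporters was -0.21, against -0.01 over all genes tested.

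Among the genes of esterification and HDL exchange, Scarb1, the HDL receptor that takes up cholesteryl ester, was the steadiest. It had 328, 319, 305 and 292 CPM in Ctrl 1 to 4 and 299, 259, 269 and 297 CPM in SA 1 to 4. SA 2 and SA 3 were below every Ctrl library, the other SA libraries were within the Ctrl range, and the log2 fold change was -0.15 ± 0.13 (SE), the smallest standard error of the set. Soat2, which esterifies cholesterol inside hepatocytes, was 30.4 to 52.9 CPM in Ctrl and 43.2 to 49.5 CPM in SA, a log2 fold change of 0.16 ± 0.17 (SE). Lcat, whose secreted enzyme esterifies cholesterol on HDL, had 0 reads in all 8 libraries of the count table. The FPKM table listed it at 387, 339, 425 and 292 FPKM in Ctrl and 385, 464, 461 and 493 FPKM in SA, the highest level per length of the 31 members listed. Its 4 SA values included the 3 highest and overlapped Ctrl by SA 1, and the difference of 0.33 on the log2(FPKM + 1) scale had a limma p of 0.0667 unadjusted and 0.999 adjusted. The 0 in the counts is therefore no sign that the transcript was absent, and the reason for it was not tested.

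The lysosomal proteins NPC1 and NPC2 hand over cholesterol taken up in lipoproteins, and the ubiquitin ligase Mylip, an LXR target, removes lipoprotein receptors from the cell surface. Npc1 was 51.4, 76.7, 78.8 and 91.7 CPM in Ctrl and 86.7, 90.3, 99.9 and 65.3 CPM in SA, with Ctrl 1 the lowest and SA 3 the highest and a log2 fold change of 0.20 ± 0.19 (SE). Npc2 was 104, 72.5, 68.9 and 57.6 CPM in Ctrl and 60.7, 65.4, 64.7 and 86.8 CPM in SA, with Ctrl 1 the highest and a log2 fold change of -0.13 ± 0.19 (SE). Mylip was 26.4 to 28.7 CPM in Ctrl and 19.5 to 26.8 CPM in SA, where SA 1 and SA 4 lay below the Ctrl range and the other 2 libraries inside it, a log2 fold change of -0.20 ± 0.15 (SE).

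Set against each other, the synthesis and efflux sides did not separate the groups. The median log2 fold change was 0.03 over the 17 tested synthesis genes (10 positive, 7 negative) and -0.13 over the 11 tested efflux, storage and uptake genes (4 positive, 7 negative), a difference of 0.15 between the 2 medians. That difference rested on SA 1, without which it was -0.020, and it was 0.055 without SA 2, 0.22 without SA 4 and 0.041 with log2(FPKM + 1). With the 4 ABC transporters alone as the efflux side and all libraries kept, it was 0.24. The mean deviation of these 4 transporters was -0.063 to 0.18 in the Ctrl libraries and -0.24 to 0.099 in the SA libraries. Their group means differed by -0.17 with a pooled SD of 0.13, and the groups overlapped. In each library the mean deviation of the synthesis genes minus that of the efflux side was 0.02, -0.12, -0.21 and 0.17 in Ctrl 1 to 4. It was 0.42, 0.08, -0.12 and -0.24 in SA 1 to 4. The highest and the lowest of the 8 values, SA 1 and SA 4, were both SA libraries, and the group means differed by 0.07 with a pooled SD of 0.23. SA 1 combined the highest mean of the synthesis genes with the lowest of the efflux side (-0.12), and SA 4 had the second lowest mean of the synthesis genes with an efflux mean of 0.07.

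**Figure D4:**
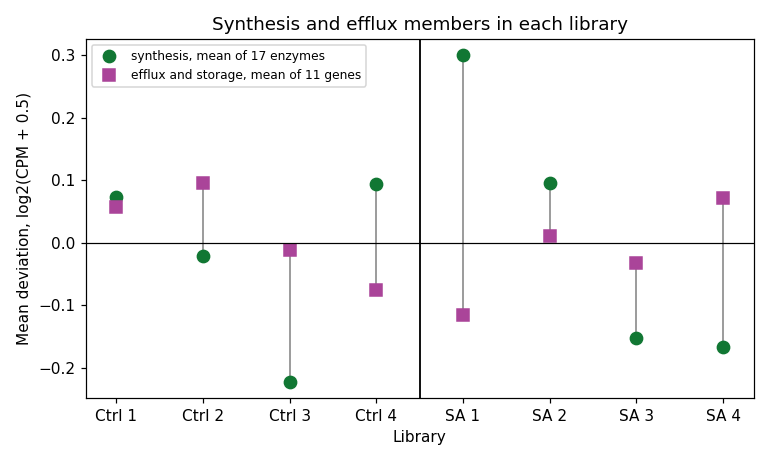
Mean deviation on the log2(CPM + 0.5) scale (y axis) of 17 synthesis enzymes (circles) and 11 efflux and storage genes (squares) in each library (x axis), with a grey line joining the pair. The gap is 0.42 in SA 1 and -0.24 in SA 4, wider than the difference of the group means (0.07).

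Levels can be compared between members only per length, and in FPKM a secreted enzyme, an HDL receptor and an isomerase stood at the top. After Lcat (406 FPKM over all 8 libraries) came Scarb1 (129), Ebp (125), Abcg5 (108), Insig2 (87.1), Insig1 (75.1) and Sc5d (74.7). The lowest were Abcg1 (4.19), Mvk (3.26) and Fdft1 (2.74). The low rank of Fdft1 was not borne out by the counts. In Ctrl its mean was 66.5 CPM against 48.6 CPM for Hmgcs1, with longest annotated transcripts of 3698 and 3464 bases. In FPKM Hmgcs1 was the higher, with a Ctrl mean of 14.5 against 3.60 for Fdft1. The part of the overlapping gene Ctsb in the counts of Fdft1 was not tested. The tables also disagreed on Fdps and Lcat, so these ranks hold for the FPKM table only. Srebf2 ranked 21 of 31 at 14.5 FPKM, next to Hsd17b7 at 14.4 FPKM, and these 2 overlapped across libraries. Mvd, Sqle, Lss and Dhcr7 are not among the genes of the FPKM table.

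For the 29 tested members in both tables, 25 had the same sign in counts and in FPKM. The 4 that did not were Acat2, Idi1, Fdft1 and Stard4, with 45.9%, 30.5%, 30.7% and 0% of their 50-base words in other genes. Nr1h3 and Nr1h2, at 0%, kept their sign, with 0.17 and 0.22 in counts against 0.78 and 1.08 in FPKM. The part of shared sequence in these differences was not tested. Over 7940 shared genes, the departures of each library from the mean level correlated between counts and FPKM at 0.25 to 0.43, a description over genes, which are not replicates.

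**Figure D5:**
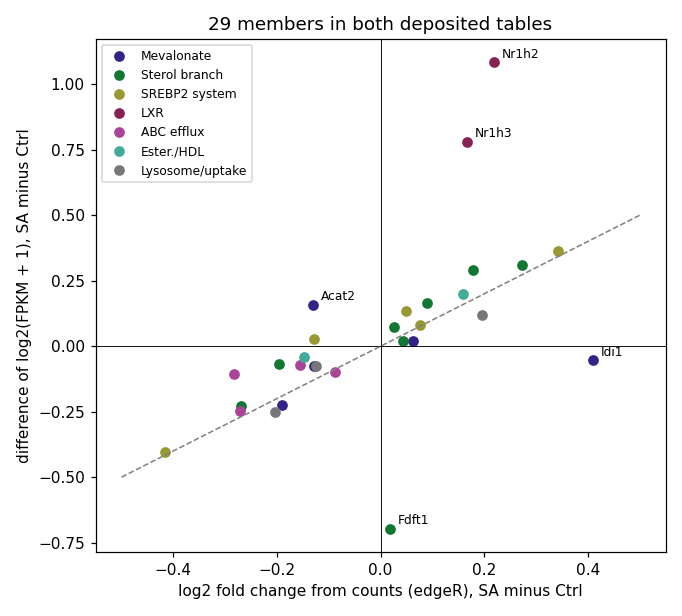
Log2 fold change from counts (x axis) against the difference of log2(FPKM + 1) (y axis), SA minus Ctrl, for the 29 members in both tables, coloured by role, with a dashed line where both are equal. Most points lie near the line, while Nr1h2 (0.22 and 1.08), Nr1h3 (0.17 and 0.78), Fdft1 (0.02 and -0.70) and Idi1 (0.41 and -0.05) lie away from it.

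Other genes of the same pathways were tested in the same fit. Of 26 further genes of sterol synthesis, SREBP processing, sterol transport and lipoprotein uptake, 25 were tested and 0 were called by edgeR, with 1 higher and 1 lower in SA at an unadjusted p under 0.05 (backgrounds 2.91% higher and 3.29% lower) and a median log2 fold change of -0.0037. The lipoprotein receptor Lrp1 was at 1062 ± 263 CPM (SD, n = 4) in Ctrl against 1466 ± 324 (SD, n = 4) in SA, a log2 difference of 0.46 ± 0.21 (SE, with an adjusted p of 0.802 in edgeR). Erlin1, a membrane protein that restrains SREBP activation, was at 72.0 ± 8.84 CPM (SD, n = 4) in Ctrl against 58.4 ± 4.66 (SD, n = 4) in SA, a log2 difference of -0.30 ± 0.14 (SE, with an adjusted p of 0.797 in edgeR). The lipid transfer proteins Gramd1c and Gramd1b, with the next smallest p values, had log2 fold changes of 0.36 and -0.36. The 8 other LXR targets had a lower median, -0.30, with 3 positive and 5 negative estimates. Of these, 2 of 8 had an unadjusted edgeR p under 0.05, both lower in SA, against 3.29% of all genes, while 0 were called. Arl4c, a small GTPase, was at 8.13 ± 1.88 CPM (SD, n = 4) in Ctrl against 5.23 ± 1.25 (SD, n = 4) in SA, a log2 difference of -0.63 ± 0.24 (SE, with an adjusted p of 0.697 in edgeR). Lpcat3, which remodels phospholipids with polyunsaturated chains, was at 144 ± 21.6 CPM (SD, n = 4) in Ctrl against 116 ± 4.73 (SD, n = 4) in SA, a log2 difference of -0.31 ± 0.14 (SE, with an adjusted p of 0.797 in edgeR). Srebf1, whose main liver product switches on fatty acid synthesis, and Scd1, the stearoyl-CoA desaturase, had log2 fold changes of -0.42 and -0.48, neither past an unadjusted p of 0.05.

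Several lists of markers of other liver cell types had medians further from 0 than the members, and edgeR called 0 of these markers. DESeq2 called Cd8a (adjusted p = 0.00334) and Gzma (adjusted p = 0.00240), higher in SA, and the recruited macrophage markers Gpnmb (adjusted p = 0.0112) and Cx3cr1 (adjusted p = 0.0173), lower in SA. Stellate cell markers summed to 318 to 787 CPM in Ctrl and 260 to 323 CPM in SA, 6 of 6 tested being negative and Lrat at 0 in every library. T and NK cell markers summed to 0.574 to 3.62 CPM in Ctrl and 4.96 to 8.92 CPM in SA, with 4 of 4 tested positive. Bile duct markers summed to 34.7 to 133 CPM in Ctrl and 37.1 to 66.0 CPM in SA, sinusoidal endothelial markers to 146 to 174 and 101 to 184 CPM, and B and plasma cell markers to 3.80 to 4.89 and 3.49 to 7.63 CPM, with Ms4a1 at 0. At an unadjusted edgeR p under 0.05, 4 of 6 stellate, 3 of 5 bile duct and 1 of 4 sinusoidal markers were lower in SA. The share of all genes lower at that threshold was 3.29%. Higher in SA were 3 of 4 T and NK and 1 of 4 B and plasma cell markers, against 2.91% of all genes. The part of these cells in the levels of the cholesterol genes was not tested.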

How the data were processed

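RNA from frozen mouse liver was sequenced in 8 libraries, 4 SA and 4 Ctrl, grouped by their titles. The main unit is the deposited read count of each gene, a whole number that has not been normalized. FPKM computed by the authors, deposited for 9265 genes, served as an alternative. FastQC 0.19.7, HISAT2, StringTie 2.2.1 and the builds GRCm39 and mm10 are named per the submitters' processing notes, without roles. Which program made the counts is not given in the sources consulted, and the labels do not describe the libraries as strand-specific, so overlapping genes may share reads.

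All genes were fitted together in edgeR 4.0.16 (R 4.3.3, quasi-likelihood test on counts, TMM factors, filterByExpr), two-sided, with Benjamini-Hochberg adjustment over 12358 genes and a threshold of 0.05. CPM are TMM-scaled. The biological coefficient of variation was 22.6%, and total counts of 14114145 to 28184001 limit precision for members of a few CPM. No 2 libraries of a group agreed within sampling noise (chi-square per degree of freedom at least 29.8). Since the labels do not name animals, a p-value here reflects only how these samples vary, which may be technical. The edgeR script was tested on simulated data. Alternatives were DESeq2 1.42.0, limma-voom (limma 3.58.1), RLE factors, every gene with a count, only genes with 1 CPM in 4 libraries, limma on log2(FPKM + 1), with and without a filter of 0.5 FPKM in 4 libraries, and on log2(FPKM + 0.1), the mitochondrial share as a covariate, the replicate number as a block, the omission of each library, and the 4 ABC transporters alone as the efflux side.

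The members and lists were chosen with earlier results of these data known, so no test over a list is given. All 35 members are accounted for. Given by library are those with an unadjusted p under 0.05 or groups that do not overlap, and Srebf2, Insig1, Insig2, Sqle, Abca1, Abcg5, Abcg8, Nr1h3 and Scarb1 as examples of the roles, with others added after their values were seen. Of the other pathway lists, up to 4 genes with the smallest p are named. One gene of the sterol list is not reported here. It was taken out after its values were seen, so the counts of that list describe the genes kept. Shared sequence was counted as 50-base words of the longest transcript in GENCODE M21. Promoter windows are from RefSeq (GRCm38.p6).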

Additional observations from a re-analysis of the deposited data

Results flagged for a closer look

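In each group of 4 libraries, the CPM of the 33 tested members was examined for a highest or lowest library set apart from the others, by a gap above Dixon's 95% critical value for 4 samples. Of 66 such groups, 3 had one, and chance gives about 1 in 20. Srebf2 was lowest in SA 4, at 59.2 CPM, where the other SA libraries had 68.0 to 68.9 CPM. Insig2 was lowest in Ctrl 3, at 254 CPM, with Ctrl 1, Ctrl 2 and Ctrl 4 between 375 and 388 CPM. Insig2 was also set apart in SA 1, at 415 CPM, with SA 2 to 4 between 200.4 and 220.1 CPM.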

How the results depend on the processing

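Under all 18 alternative fits 0 members were called, and the smallest adjusted p of any member was 0.270 (Insig2, edgeR without SA 1). The number of all genes called, 2 in edgeR, was 62 in DESeq2, 8 with no filter, 3 in limma-voom and in each FPKM fit, 1 with the mitochondrial covariate and 0 to 19 when 1 library was left out, the highest without SA 1. Taking the 4 ABC transporters alone as the efflux side gave a median of -0.21 in place of -0.13. The difference of the 2 medians was then 0.24 in place of 0.15. The synthesis median was -0.08 to 0.10 with 1 library left out, -0.02 in limma-voom and with log2(FPKM + 1), and the efflux median -0.15 to -0.06, so the sign of the first depends on the setting. The difference of the 2 medians, 0.15, was -0.020 to 0.22 with 1 library left out, the lowest without SA 1. The replicate numbers were not taken to pair the libraries, since deviations of same-numbered libraries correlated at -0.24 to 0.24 and only number 3 matched its own number best. With the replicate block 6 genes and 0 members were called, and the synthesis median was -0.0024.

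Of 33 members, 16 kept their sign in every alternative, Srebf2, Insig2, Hmgcs1, Nr1h3, Nr1h2, Abcg1, Abcg5 and Scarb1 among them, and 17 did not. The cause was not tested. With log2(FPKM + 1), with or without a filter, Acat2 was 0.16, Idi1 -0.054, Fdft1 -0.70 and Stard4 0.027; with log2(FPKM + 0.1) they were 0.16, -0.042, -0.97 and 0.034. In limma-voom Cyp51 was -0.020 and Nsdhl -0.041, and with the replicate block -0.0024 and -0.0068. With the mitochondrial covariate Mvk was -0.0041, Msmo1 0.016 and Dhcr7 0.064. Leaving out 1 library at a time, the log2 fold change ranged from -0.22 to 0.24 for Mvk, -0.39 to 0.082 for Pmvk, -0.28 to 0.095 for Mvd, -0.084 to 0.14 for Fdft1, -0.078 to 0.24 for Cyp51, -0.38 to 0.073 for Msmo1, -0.12 to 0.20 for Nsdhl, -0.042 to 0.23 for Ebp, -0.39 to 0.13 for Dhcr7, -0.015 to 0.17 for Scap, -0.052 to 0.16 for Insig1, -0.35 to 0.012 for Stard4, -0.32 to 0.057 for Abca1, -0.26 to 0.065 for Abcg8 and -0.26 to 0.060 for Npc2. The widest intervals were those of Pmvk, Mvd, Mvk and Sqle, and the part of depth in them was not tested.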
